A study of Mus musculus with 30 samples.

Results

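Sclera of 8-week-old mice was compared with sclera of 1-week-old mice, the widest age span of a series of 30 arrays taken at 5 ages (1, 2, 3, 6 and 8 weeks, 6 arrays per age). The 12 arrays titled for week 8 (6 arrays) and week 1 (6 arrays) entered the comparison. All mice were Balb/cJ, an albino inbred strain, and neither group carried a transgene or received a treatment. Per the study's methods the animals came from a single family and each array was made from 1 sclera of 1 mouse, so that the 6 arrays of an age were 6 animals. The arrays (Mouse Gene 1.0 ST) measure transcript clusters, which are groups of probes along a transcript. Of 35556 transcript clusters, 21789 carried a single gene symbol, and they named the 19938 genes compared here, each taken from its brightest transcript cluster.

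The sclera is the fibrous outer coat of the eye. Its fibroblasts lay down collagen fibrils whose diameter and spacing are set by minor collagens, small leucine-rich proteoglycans and cross-linking enzymes, and the coat grows and stiffens while the postnatal eye enlarges. It is bordered by the choroid and the retinal pigment epithelium on its inner side, by conjunctiva and cornea in front, and by the extraocular muscles that insert into it. Mouse eyelids open in the second postnatal week, which lies between the ages compared. Many imprinted genes promote fetal growth and are known to be turned down in several organs after birth.

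Values are log2 levels. For single genes they are given as the lowest, median and highest of the 6 arrays of an age. A difference is week 8 minus week 1 on the log2 scale with its standard error, so that a positive difference means higher in week 8. A gene was called where the difference was at least 2-fold and the limma p-value, adjusted by Benjamini-Hochberg over all 35556 transcript clusters, was 0.05 or less. The value table holds no detection calls, so a low level cannot be told from background and a fold change of a dim gene is a compressed value.

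Arrays of week 8 correlated with each other at a median r of 0.983 (0.955 to 0.990), those of week 1 at 0.978 (0.956 to 0.987), and arrays of week 8 with arrays of week 1 at 0.937 (0.901 to 0.969). The interquartile range of an array was 2.33 to 2.67 in week 8 and 2.60 to 2.79 in week 1. The sex of the mice was not in the labels. Xist, the RNA that coats the inactive X chromosome, lay at 10.05 to 10.48 in the 6 week 8 arrays. In week 1 it lay at 4.71 to 5.59 in replicates 1, 2 and 5 and at 10.98 to 11.34 in replicates 3, 4 and 6. The Y-linked gene Eif2s3y lay at 2.41 to 2.77 in week 8, against 7.78 to 8.04 in week 1 replicates 1, 2 and 5 and 2.61 to 2.70 in week 1 replicates 3, 4 and 6. Eif2s3y (difference -2.74) and the Y-linked Uty (-2.40) were among the genes called lower. The pattern of these genes was uniform in week 8 and split in week 1, so age and sex are partly confounded. The part of sex in the differences was not tested. Week 8 replicate 2 had the lowest interquartile range of its age (2.33, against 2.47 to 2.67 in the others). Its mean r with the arrays of its own age was also the lowest (0.964, against 0.977 to 0.983). Week 8 replicate 2 and week 8 replicate 6 stood apart in several gene lists, as described below. Where leaving out 1 array moved a list's count of 3 or more calls by over 1.5 times, the count without it is given.

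At week 8, 1591 of 19938 genes were called (7.98%), 641 higher (3.21%) and 950 lower (4.76%). The list counts below are to be read beside these shares, and 1 or 2 calls in a list do not set it apart from all genes. Among all 35556 transcript clusters 2558 were called (7.19%), 852 higher (2.4%) and 1706 lower (4.8%). Of the called genes 73 had several transcript clusters, and in 29 of these not every transcript cluster was called. No gene had transcript clusters called in opposite directions. The median difference over all genes was 0.04. A difference of at least 4-fold was found in 159 genes that rose and 99 that fell, and one of at least 16-fold in 4 that rose and 3 that fell. The arrays of the ages did not overlap in 1028 of the called genes, 440 higher and 588 lower. Over all genes, called or not, they did not overlap in 10.5% with week 8 higher and in 13% with week 8 lower. The balance of the calls moved when the spread of the arrays was fitted. The interquartile ranges of the ages overlapped only in part (2.33 to 2.67 in week 8, 2.60 to 2.79 in week 1). Such a covariate can therefore take up part of the age difference, and the 2 cannot be fully separated. This holds for every fit with this covariate given below. Once the interquartile range of the arrays entered the fit as a covariate, 767 genes were higher and 705 lower, so that 52.1% of called genes were higher, against 40.3% without it. In the same fit on the 12 arrays alone, 841 were higher and 504 lower. Leaving out week 1 replicates 1, 2 and 5 together gave 776 higher and 1336 lower.

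**Figure D1:**
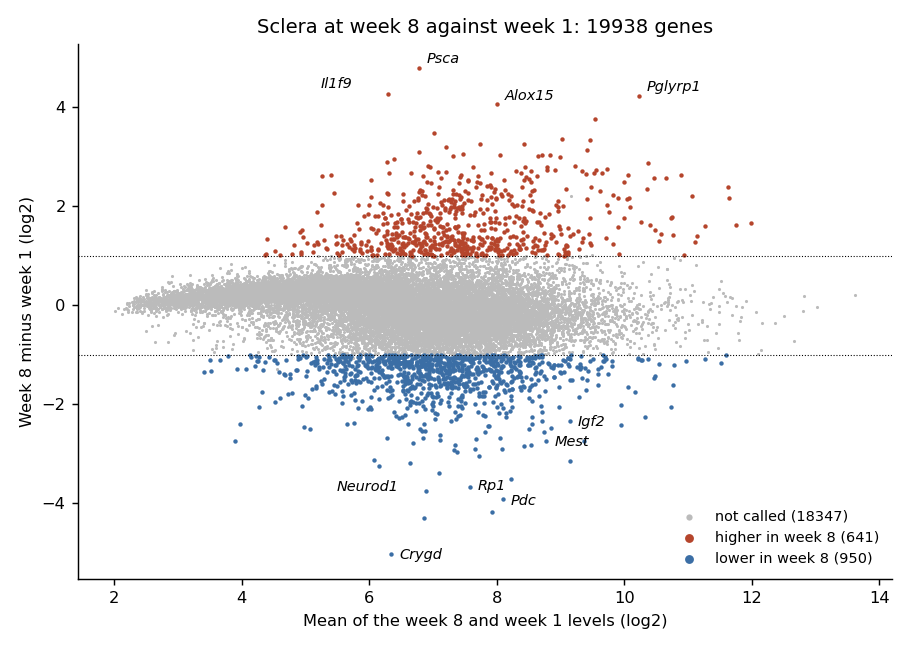
Difference between week 8 and week 1 (vertical axis, log2) against the mean level of the ages (horizontal axis, log2) for 19938 genes; dotted lines mark 2-fold. The 641 genes higher in week 8 reach 4.79 (Psca), and the 950 lower genes reach -5.04 (Crygd), whose arrays overlapped between the ages.

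The 12 largest rises among called genes without overlap of the arrays were mostly genes of wet and barrier epithelia. Psca encodes a glycolipid-anchored surface protein. It measured 7.38, 9.48 and 9.90 in week 8, against 4.08, 4.30 and 5.01 in week 1, a 27.6-fold rise (difference 4.79 ± 0.52, adjusted p = 5.24e-08). All week 8 arrays lay above all week 1 arrays, with replicate 2 the lowest of week 8. Il1f9, the epithelial cytokine interleukin-36 gamma, measured 7.31, 8.52 and 9.32 in week 8, against 3.94, 4.16 and 4.39 in week 1, a 19.2-fold rise (adjusted p = 1.58e-11). Pglyrp1, which binds bacterial peptidoglycan, measured 11.81, 12.39 and 12.70 in week 8, against 7.31, 8.11 and 9.37 in week 1, an 18.8-fold rise (adjusted p = 1.58e-11). The lipoxygenase Alox15 measured 9.35, 10.03 and 10.67 in week 8, against 5.15, 5.88 and 7.05 in week 1, a 16.7-fold rise (adjusted p = 1.21e-09). The nearest arrays of the ages lay over 2 log2 units apart in each of these 4 genes. Plet1 (13.6-fold), the protease inhibitor Spink5 (11.1-fold), the cytochrome P450 Cyp2f2 (10.3-fold), Lypd2 (10.1-fold), the sialic acid hydroxylase Cmah (9.54-fold), Nccrp1 (9.54-fold), the sodium-glucose cotransporter Slc5a1 (9.15-fold) and the water channel Aqp5 (8.77-fold) completed the 12.

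The 12 largest falls among called genes without overlap of the arrays were led by photoreceptor genes. Pdc encodes phosducin, which binds the beta-gamma subunits of the rod G protein. It measured 4.37, 6.27 and 7.87 in week 8, against 7.89, 10.60 and 11.31 in week 1, and was 15.0-fold lower in week 8 (difference -3.91 ± 0.55, adjusted p = 1.74e-06). The highest week 8 array and the lowest week 1 array were almost at the same level. Neurod1, a transcription factor of retinal neurons, measured 4.51, 4.94 and 5.81 in week 8, against 6.45, 9.23 and 10.20 in week 1 (13.6-fold lower, adjusted p = 4.42e-07). Rp1, a microtubule protein of the photoreceptor outer segment, measured 4.64, 5.74 and 7.31 in week 8, against 7.36, 9.80 and 10.80 in week 1 (12.8-fold lower, adjusted p = 2.03e-06). The week 1 arrays of these 3 genes spread over more than 3 log2 units, and the nearest arrays of the ages lay within 1 unit of each other. Impg2 (9.06-fold), Neurod4 (8.70-fold), Rpgrip1 (7.64-fold) and Rorb (6.62-fold) are also retinal genes, Tyr (7.07-fold) and Rpe65 (6.42-fold) are genes of pigment cells and the pigment epithelium, and Mest (6.72-fold) is imprinted. Nrep, a gene of migrating and regenerating cells, differed from the photoreceptor genes in its narrow spread. It measured 6.85, 7.65 and 8.27 in week 8, against 10.37, 10.75 and 10.98 in week 1 (8.82-fold lower, adjusted p = 6.79e-11). Arxes2, a gene of differentiating adipocytes, was 6.38-fold lower.

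**Figure D2:**
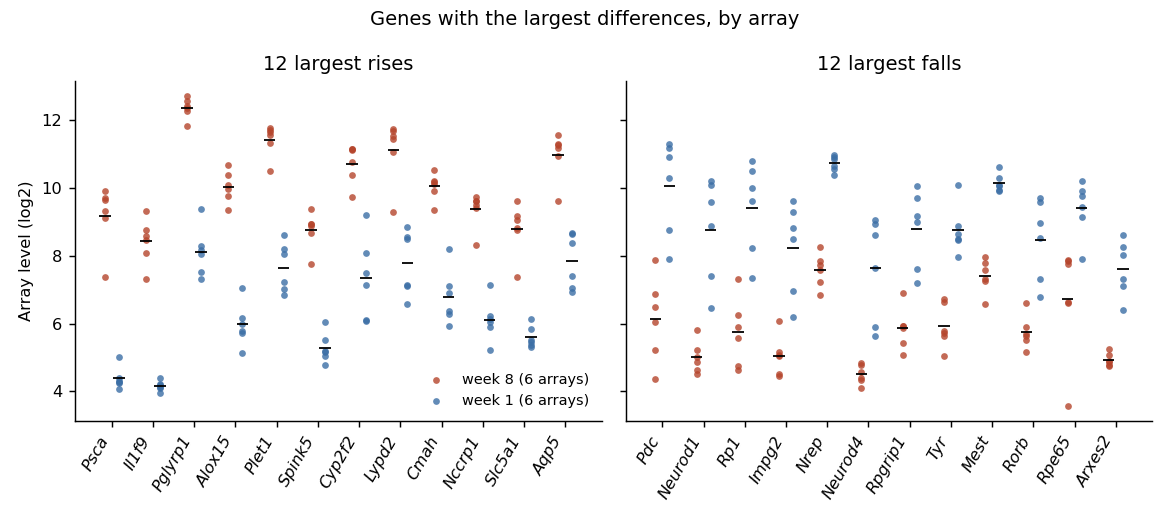
Levels (log2) of the 12 genes with the largest rises and the 12 with the largest falls in each of the 6 week 8 arrays (left of each pair) and the 6 week 1 arrays (right), with black bars at the means. Nrep and Mest are tight in week 1, where the photoreceptor genes spread over several log2 units.

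Genes of the ocular surface epithelium, the stratified layer of cornea and conjunctiva, rose as a group. Of 34 measured members 28 were called higher and 1 lower, with a median difference of 2.19. Their mean level was 9.82 in week 8 (9.0 to 10.11) and 7.85 in week 1 (7.30 to 8.65). The desmosomal cadherin Dsg3 measured 9.07, 10.60 and 10.74 in week 8, against 6.42, 7.28 and 8.76 in week 1 (difference 3.04 ± 0.37, adjusted p = 2.46e-07). Krt13, a keratin of conjunctival epithelium, measured 11.08, 11.81 and 12.11 in week 8, against 8.34, 8.99 and 10.70 in week 1 (difference 2.57 ± 0.27, adjusted p = 3.74e-08). Krt12, the keratin of corneal epithelium, measured 11.56, 13.08 and 13.17 in week 8, against 7.92, 10.87 and 11.92 in week 1 (difference 2.38 ± 0.63, adjusted p = 2.59e-03). Dsg3 and Krt13 did not overlap between the ages, whereas Krt12 did. Krt14 rose by 2.64 and Krt5 by 1.66, the keratin pair of basal cells, and Trp63, the transcription factor of their progenitors, by 1.66. The single fall was Krt18, a keratin of simple epithelia, which measured 7.19, 7.60 and 7.88 in week 8, against 7.88, 9.22 and 9.51 in week 1 (difference -1.47 ± 0.23, adjusted p = 8.18e-06). Week 8 replicate 2, the lowest of its age in this list, still lay above week 1 replicate 2, the highest of week 1. In a bulk extract more cells of a type, more RNA per cell and a larger share of adjoining tissue cannot be told apart.

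Other epithelial families were listed after the values were seen, and their counts are a description that supports nothing about the breadth of the rise. Of 17 epithelial transcription and splicing factors 14 were called higher and none lower (median 1.80). Ehf, an ETS factor of epithelia, measured 8.87, 9.94 and 10.34 in week 8, against 6.15, 6.98 and 8.22 in week 1. Esrp1, which directs epithelial splicing, measured 8.47, 10.02 and 10.14 in week 8, against 6.39, 7.12 and 8.30 in week 1. The 3 Grhl factors rose by 1.55 to 2.14. Of 9 mucin genes 5 were called higher, with Muc4 at 2.73, Muc15 at 2.67 and Muc1 at 2.42, while the difference of Muc16, a transmembrane mucin of the ocular surface, was 0.15. Of 27 genes of antimicrobial and mucosal defence 17 were called higher and none lower (median 1.92), including the iron-binding proteins Ltf (2.82) and Lcn2 (2.79) and the lysozyme Lyz1 (1.12). The neutrophil genes S100a8 and S100a9 differed by 0.38 and 0.20 and were not called. Of 16 genes of the cornified envelope and barrier lipids 8 were called higher, among them the plakins Ppl (2.79) and Evpl (2.31), and 1 lower, the fatty acid elongase Elovl4 (-2.45), which also serves photoreceptors.

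For microRNAs the array reports the gene or its precursor, and neither the arms nor the mature form can be told apart. Of 260 microRNA genes outside the imprinted domain described below, 3 were called higher (1.15%, beside 3.21% of all genes) and 10 lower. The 3 are known from epithelia. Mir200a measured 6.57, 6.78 and 7.09 in week 8, against 5.55, 5.68 and 6.24 in week 1 (difference 1.04 ± 0.12). Mir200b measured 4.81, 5.39 and 6.00 in week 8, against 3.98, 4.29 and 5.07 in week 1 (1.07 ± 0.23), and Mir205 measured 4.79, 5.70 and 6.41 in week 8, against 3.76, 4.57 and 5.37 in week 1 (1.09 ± 0.29). Only Mir200a had arrays that did not overlap. All 3 lay close to 2-fold, and each lost its call without week 8 replicate 6 and without week 1 replicate 3. Their mature forms (RefSeq, GRCm38.p6) are shown with the seed, bases 2 to 8, in capitals, because the seed sets the targets; the seeds of miR-200a and miR-200b differ at 1 base.
miR-200a-3p: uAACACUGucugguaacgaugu
miR-200b-3p: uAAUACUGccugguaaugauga
miR-205-5p: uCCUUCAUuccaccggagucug

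Interferon-induced genes and the genes of class II antigen presentation rose, without overlap of the ages for any called member. Of 23 interferon-induced genes 12 were called higher and none lower (median 1.13). Their mean level was 7.28 in week 8 (6.92 to 7.76) and 6.38 in week 1 (6.17 to 6.56). Irf7, the transcription factor that amplifies type I interferon, measured 7.55, 8.53 and 9.13 in week 8, against 6.13, 6.45 and 6.82 in week 1 (difference 2.01 ± 0.26, adjusted p = 6.82e-07). The oligoadenylate synthetases, which activate RNase L, rose together, with Oas2 at 1.87, Oas3 at 1.64 and Oas1a at 1.17, and Oasl2, which is related to them, rose by 1.89. The immunoproteasome subunits Psmb8 and Psmb9 rose by 1.37 and 1.17. Psmb9 had a narrow spread, with 7.97, 8.05 and 8.19 in week 8, against 6.70, 6.88 and 7.10 in week 1. Of 9 class II genes 4 were called higher. Cd74, the invariant chain, measured 7.74, 8.03 and 8.19 in week 8, against 5.53, 5.66 and 5.87 in week 1 (difference 2.30 ± 0.15, adjusted p = 3.12e-11). H2-Aa rose by 1.87, H2-Eb1 by 1.31 and H2-Ab1 by 1.06, the last not called without week 8 replicate 4. Ciita, the coactivator of these genes, measured 5.65, 5.77 and 6.15 in week 8, against 5.35, 5.45 and 5.57 in week 1, a difference of 0.37.

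Of 29 macrophage and leukocyte markers 2 were called higher (6.90%, beside 3.21% of all genes) and none lower, with a median difference of 0.10. They were the integrin Itgam (2.60) and Lyz1 (1.12). The mean level of these markers was 6.30 in week 8 (6.25 to 6.39) and 6.07 in week 1 (5.89 to 6.24). Of 23 immediate early genes 3 were called higher, namely Klf4 (1.87), Fosl2 (1.67) and Zfp36 (1.11), and 5 without week 1 replicate 2. Klf4 is also a factor of surface epithelia.

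Promoters of the interferon-induced genes are shown because members moved together. The interferon-stimulated response element was searched as GAAA, any 2 bases and GAAA again, on both strands in the window of 250 bases before to 50 after the start site (RefSeq, GRCm38.p6). It was found in 10 of the 17 members with a promoter in the table and in 3.99% of 27025 promoters. Among the 9 called members with a promoter, 3 held it, a smaller share than among the members not called. The stretches before the start site carry the match in capitals, with both matches of Oas1a overlapping, and are written in the direction of the gene.
Oas3 (chr5:120777695-120777764, minus strand): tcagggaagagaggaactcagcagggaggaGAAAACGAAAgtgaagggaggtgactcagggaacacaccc
Oas1a (chr5:120907526-120907575, minus strand): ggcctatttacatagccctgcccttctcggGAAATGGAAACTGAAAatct
Ifit1 (chr19:34640755-34640843, plus strand): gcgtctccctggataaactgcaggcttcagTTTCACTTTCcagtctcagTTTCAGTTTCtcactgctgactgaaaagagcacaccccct
A match is a description of these letters and not a binding site.

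Genes of the cell cycle and DNA replication were higher on average at week 8. Of 53 measured, 7 were called higher and none lower (median 0.67), and the mean level was 7.0 in week 8 (6.31 to 7.41) and 6.41 in week 1 (6.17 to 6.82). Mki67, the proliferation marker, measured 7.23, 8.39 and 8.90 in week 8, against 6.35, 6.94 and 7.84 in week 1 (difference 1.38 ± 0.26, adjusted p = 7.88e-05). The mitotic kinase Plk1 measured 7.14, 7.74 and 8.04 in week 8, against 6.20, 6.42 and 6.83 in week 1 (difference 1.23 ± 0.16, adjusted p = 9.60e-07). Plk1 did not overlap between the ages, while Mki67, Top2a (1.24), Melk (1.41), Prc1 (1.19), Kif20a (1.12) and the cytokinetic motor Kif23 (1.58) did. In each of these 6 genes week 8 replicate 2 was the only week 8 array below a week 1 array, and it was also the lowest of week 8 in ocular surface genes. Without week 8 replicate 2, 19 members were called higher. Without week 1 replicate 1, the highest of its age, 15 were called. Kif20a was not called without week 8 replicate 1. The letters TTTGAA of the cell cycle homology region were found in 17 of 43 promoters of the list and in 20.2% of all promoters.

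**Figure D3:**
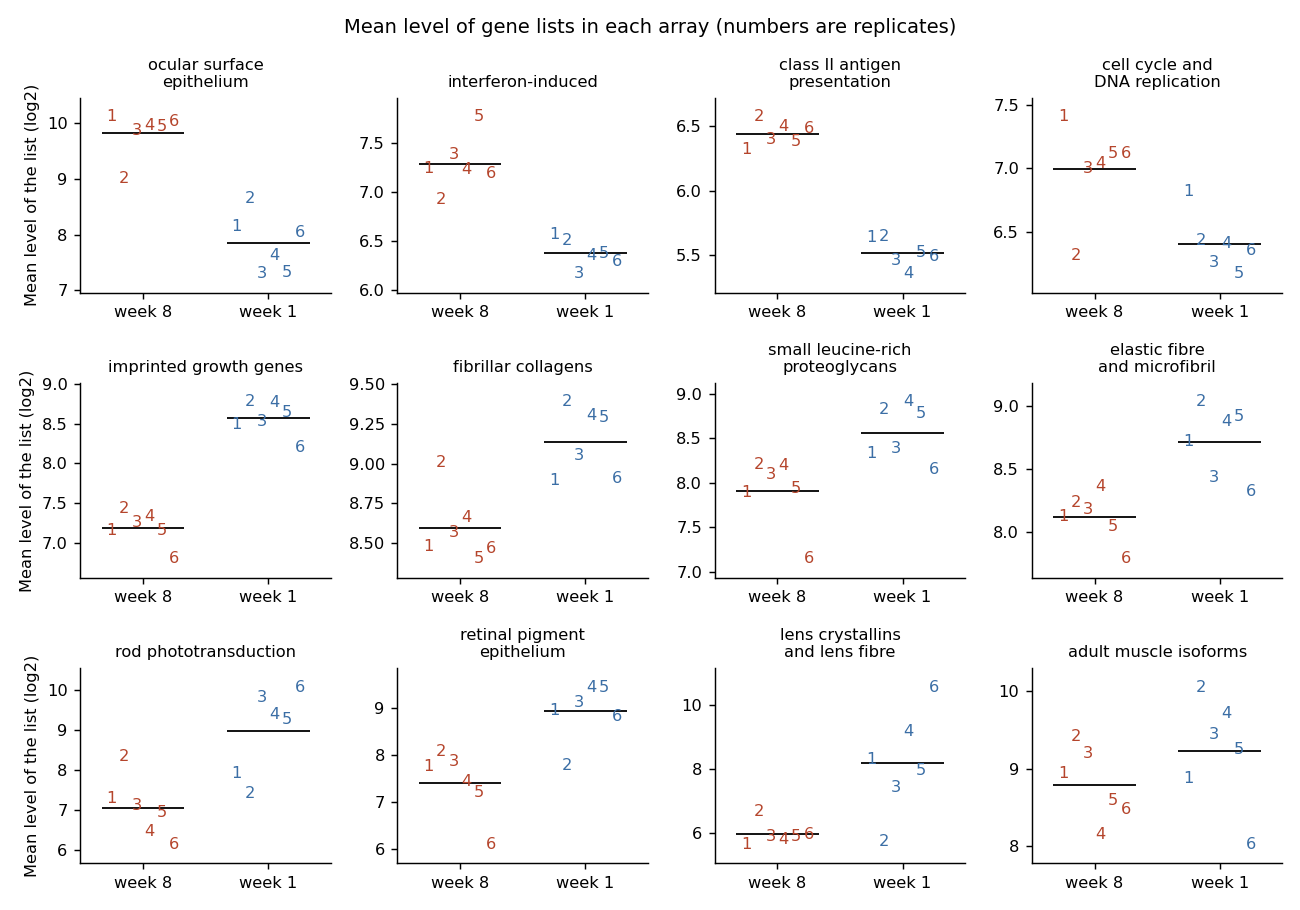
Mean level (log2) of the members of 12 gene lists in each array, with week 8 left of week 1, digits for the replicates and bars for the means. Ocular surface, interferon, class II and imprinted genes do not overlap between the ages. The lens list overlaps through week 1 replicate 2 and the muscle list overlaps widely, and replicates 2 and 6 of week 8 stand apart in several lists.

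Imprinted growth genes fell. Of 16 measured, 12 were called lower and none higher (median -1.64). Their mean level was 7.18 in week 8 (6.79 to 7.43) and 8.57 in week 1 (8.20 to 8.78). Mest, a paternally expressed hydrolase-fold protein, measured 6.57, 7.44 and 7.96 in week 8, against 9.92, 10.07 and 10.63 in week 1 (difference -2.75 ± 0.28, adjusted p = 2.50e-08). Peg3, a paternally expressed zinc finger gene, measured 7.16, 7.99 and 8.63 in week 8, against 9.11, 9.66 and 9.97 in week 1 (difference -1.74 ± 0.23, adjusted p = 6.63e-07). Ndn, encoding necdin, measured 7.61, 7.68 and 8.12 in week 8, against 9.21, 9.39 and 9.53 in week 1 (difference -1.59 ± 0.11, adjusted p = 3.12e-11). Growth inhibitors fell beside these. The cyclin-dependent kinase inhibitor Cdkn1c measured 7.80, 8.14 and 8.57 in week 8, against 9.0, 9.65 and 10.16 in week 1 (difference -1.45 ± 0.18). Grb10, an adaptor that damps insulin and IGF receptors, measured 6.70, 7.48 and 7.85 in week 8, against 8.50, 9.12 and 9.58 in week 1 (difference -1.68 ± 0.24). Zim1, Plagl1, Slc38a4, Sgce and Peg10 fell by 1.10 to 2.14. Dlk1 (-0.68), Impact (-0.62) and Gpc3, an X-linked growth regulator kept in this list (-0.55), were not called, and Phlda2, a maternally expressed growth restrictor, lay at 0.49.

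Igf2, the paternally expressed fetal growth factor, measured 7.37, 7.97 and 8.49 in week 8, against 9.57, 10.36 and 11.09 in week 1, and was 5.04-fold lower (difference -2.33 ± 0.26, adjusted p = 5.21e-08). Igf1, the growth factor of postnatal life, measured 6.13, 6.98 and 7.18 in week 8, against 8.10, 8.57 and 9.69 in week 1 (difference -1.83 ± 0.25, adjusted p = 1.09e-06). All week 8 arrays lay below all week 1 arrays for both ligands. Of the 14 members of the IGF system 3 were called lower and none higher (median -0.34). The third was the binding protein Igfbp3 (7.11, 7.79 and 8.32 in week 8, against 8.34, 8.86 and 9.35 in week 1, difference -1.04 ± 0.26), which was not called without week 8 replicate 6 or without week 1 replicate 4 or 5. The receptors differed less, with Igf1r at -0.14 and Igf2r at -0.34. Igf2bp1, the oncofetal RNA-binding protein that binds Igf2 mRNA, measured 5.71, 5.98 and 6.12 in week 8, against 6.52, 6.64 and 7.22 in week 1 (difference -0.76), without overlap but under 2-fold. Igfbp2 and Igfbp5 differed by -0.01 and -0.08, and Igfbp1, Igfbp4, Igfbp6, Igfbp7, Igfals and Igf2bp3 by -0.81 to 0.39.

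The imprinted domain between Dlk1 and Dio3 on chromosome 12 holds the maternally expressed RNAs Meg3 and Rian and a long run of microRNA genes. Meg3 measured 8.77, 9.18 and 10.43 in week 8, against 10.38, 11.14 and 11.29 in week 1 (difference -1.75 ± 0.27, adjusted p = 8.11e-06), with 1 array of week 8 above the lowest of week 1. Rian, which hosts small nucleolar RNAs, measured 4.50, 4.87 and 5.09 in week 8, against 6.31, 6.79 and 6.99 in week 1 (difference -1.92 ± 0.14, adjusted p = 1.44e-10). Of 61 microRNA genes listed between Meg3 and Dio3, 40 were measured. Of these 15 were called lower and none higher (37.5%, median -0.51), beside 4.76% of all genes called lower and 10 of the 260 microRNA genes elsewhere (3.85%). This group was formed after its values were seen. Mir380 measured 3.13, 3.22 and 3.39 in week 8, against 4.58, 5.52 and 5.65 in week 1 (difference -2.06 ± 0.19, adjusted p = 4.83e-09). Mir382 measured 4.61, 4.82 and 4.98 in week 8, against 5.77, 6.56 and 7.15 in week 1 (difference -1.81 ± 0.17), and Mir487b measured 5.35, 5.43 and 5.88 in week 8, against 6.47, 7.22 and 7.62 in week 1 (difference -1.65 ± 0.14). None of these 3 overlapped between the ages. Mir380 was low on the array's scale at week 8. Other called members lay lower still, with week 8 means of 2.74 for Mir495, 2.85 for Mir379 and 3.10 for Mir411. The differences of the 25 others ran down to -0.75 and up to 0.55. Neighbouring genes of the domain share ancestry, and probes of near-identical precursors may not separate them.

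The sequences of the domain's microRNAs (RefSeq, GRCm38.p6) are shown because several share or nearly share seeds, given in capitals. miR-379-3p and miR-411-3p, from genes that fell by 1.32 and 1.11, have the same seed, and that of miR-380-3p differs from it. miR-300-3p and miR-381-3p, from genes that fell by 1.62 and 1.10, differ within the seed and share most of the bases that follow it. miR-382-5p and miR-495-5p, from genes that fell by 1.81 and 1.36, have seeds that differ in the last base, and miR-487b-5p is shown as an arm of Mir487b, which fell by 1.65. Mir381 was not called without week 1 replicate 4.
miR-379-3p: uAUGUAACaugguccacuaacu
miR-411-3p: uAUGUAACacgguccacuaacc
miR-380-3p: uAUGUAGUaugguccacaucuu
miR-300-3p: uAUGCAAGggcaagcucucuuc
miR-381-3p: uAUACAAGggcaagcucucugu
miR-382-5p: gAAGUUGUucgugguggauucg
miR-495-5p: gAAGUUGCccauguuauuuuucg
miR-487b-5p: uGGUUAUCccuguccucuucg

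Of the 10 microRNA genes elsewhere that fell, 5 belong to 2 seed families. Mirlet7c-1 measured 3.49, 4.73 and 5.17 in week 8, against 6.07, 6.26 and 6.53 in week 1 (difference -1.74 ± 0.21), and Mirlet7f-1 measured 3.70, 4.01 and 4.36 in week 8, against 4.83, 5.59 and 5.92 in week 1 (-1.47 ± 0.14). Mir99a, the neighbour of Mirlet7c-1, fell by 1.14. Mir181b-1 measured 5.47, 5.58 and 5.91 in week 8, against 6.43, 7.74 and 8.28 in week 1 (-1.90 ± 0.24), Mir181b-2 fell by 1.20 and Mir181a-1 by 1.31. Mir204, which is abundant in the retinal pigment epithelium, measured 5.94, 6.42 and 7.13 in week 8, against 6.89, 8.11 and 8.50 in week 1 (-1.49 ± 0.20). Mir218-1, Mir103-2 and Mir1839 fell by 1.02 to 1.46. Mir99a, Mir103-2 and Mir1839 each lost the call when 1 or more single arrays were left out. The let-7 and miR-181 members have the same seed within each family, as the capitals show, and the mature miR-181b of both genes is identical.
let-7c-5p: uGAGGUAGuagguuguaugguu
let-7f-5p: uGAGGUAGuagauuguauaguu
miR-181a-5p: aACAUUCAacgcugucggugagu
miR-181b-5p: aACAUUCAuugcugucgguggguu
miR-204-5p: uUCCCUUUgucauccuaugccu

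**Figure D4:**
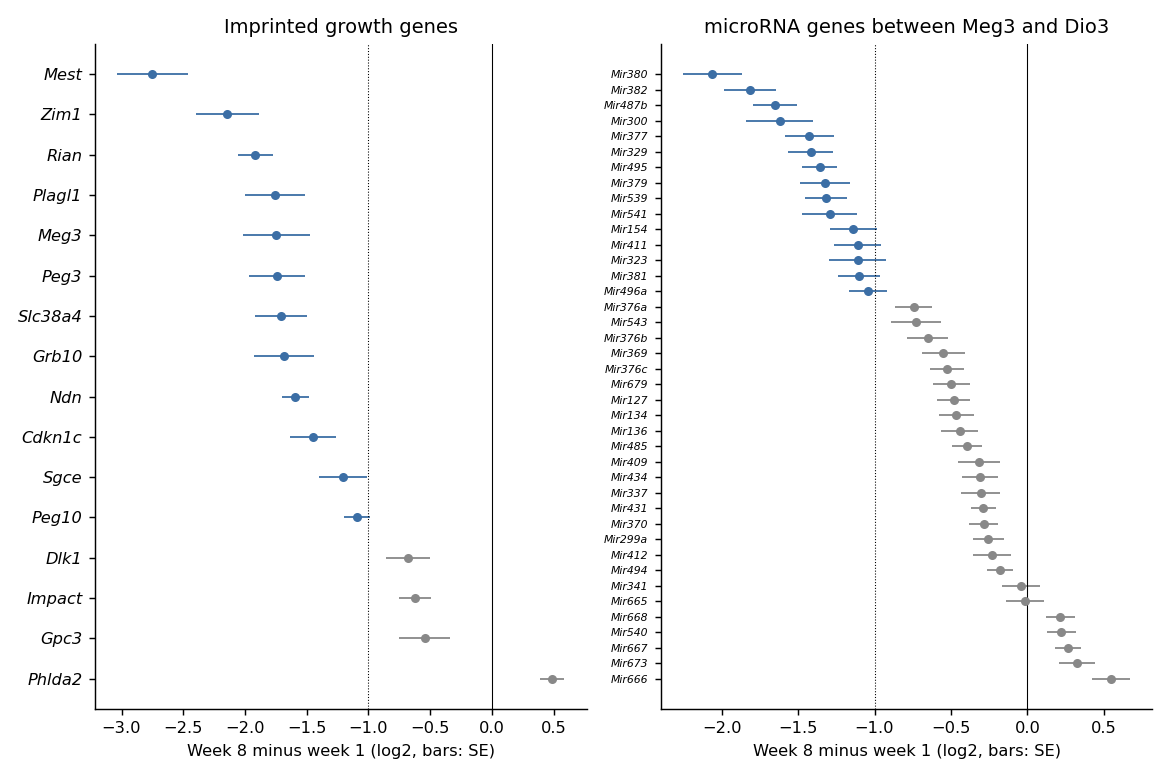
Difference between week 8 and week 1 (log2, horizontal axis; bars show the SE) of the 16 imprinted growth genes (left) and of the 40 measured microRNA genes between Meg3 and Dio3 (right); blue points were called lower, grey points were not called, and the dotted line marks 2-fold. Of the imprinted genes 12 and of the microRNA genes 15 were called lower, and none was called higher.

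Among matrix genes, 3 of 11 fibrillar collagens were called lower and none higher (median -0.48). Col11a1, a minor collagen that limits fibril diameter, measured 6.88, 7.13 and 7.64 in week 8, against 8.13, 8.44 and 8.72 in week 1 (difference -1.25 ± 0.18, adjusted p = 3.38e-06). Col5a2, which nucleates fibrils, measured 7.66, 7.92 and 8.29 in week 8, against 8.58, 9.07 and 9.65 in week 1 (difference -1.14 ± 0.22, adjusted p = 1.02e-04). Col3a1, abundant in growing and compliant tissue, measured 10.52, 10.62 and 11.03 in week 8, against 11.37, 11.85 and 12.27 in week 1 (difference -1.10 ± 0.26, adjusted p = 9.09e-04). None of these 3 overlapped between the ages, and Col5a2 was not called without week 1 replicates 1, 2 and 5 together. The main scleral collagen genes differed by less than 2-fold, with Col1a1 at 11.97, 12.30 and 12.82 in week 8, against 12.79, 12.99 and 13.35 in week 1 (difference -0.71), and Col1a2 at -0.91, which was called without week 8 replicate 2. Col5a1 differed by -0.48, Col2a1 by -0.43 and Col24a1 by -0.23, while Col27a1, Col5a3 and Col11a2 lay between -0.05 and 0.19. With the interquartile range of the arrays as a covariate in the fit of all ages, 1 of the 11 was called lower (median -0.52). In the same fit on the 12 arrays alone, 3 of the 11 were called lower (median -0.72).

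Collagen-modifying enzymes had 5 of 23 members lower and 1 higher (median -0.48). Lox, the lysyl oxidase that starts cross-links, measured 5.46, 6.23 and 6.56 in week 8, against 7.39, 8.09 and 8.63 in week 1 (difference -1.92 ± 0.23, adjusted p = 1.70e-07). The lysyl hydroxylases Plod2 and Plod1 fell by 1.42 and 1.30, and P4ha1, a prolyl 4-hydroxylase subunit, by 1.04, each without overlap. P4ha1 was not called without week 8 replicate 6. The prolyl 3-hydroxylase P3h2 measured 8.42, 9.16 and 9.26 in week 8, against 7.41, 7.66 and 8.00 in week 1 (difference 1.31 ± 0.14). Loxl1, which serves elastic fibres, fell by 1.12 with overlapping arrays and was not called without week 8 replicate 6. Of the enzymes 3 were called lower without week 8 replicate 6. Among 23 other collagens 4 were called lower and 1 higher, but 2 were lower without week 8 replicate 6, without week 1 replicate 4 or without week 1 replicate 5, since Col12a1 and Col4a2 lay close to 2-fold. Col8a1, a collagen of vessels and Descemet's membrane, measured 6.07, 7.51 and 7.99 in week 8, against 9.09, 9.80 and 10.21 in week 1 (difference -2.41 ± 0.27). Col17a1, the hemidesmosomal collagen of epithelia, measured 8.86, 10.19 and 10.56 in week 8, against 7.07, 7.94 and 8.85 in week 1 (difference 2.11 ± 0.36).

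Of 15 small leucine-rich proteoglycans, which coat collagen fibrils, 4 were called lower and none higher (median -0.73), and the 4 did not overlap. Lum, encoding lumican, measured 6.45, 7.97 and 8.33 in week 8, against 8.83, 9.72 and 10.07 in week 1 (difference -1.84 ± 0.30, adjusted p = 1.58e-05). Aspn (-1.72), Kera, the keratocyte gene keratocan (-1.47), and Ogn (-1.36) were the others. The most abundant member at both ages, Dcn, measured 10.54, 11.67 and 11.87 in week 8, against 11.48, 12.16 and 12.37 in week 1, a difference of -0.57 that was not called. Bgn differed by -0.83, Ecm2 by -0.97, Optc by -1.0 and Epyc by -0.73 without being called, and Fmod by -0.02. Ecm2 and Optc lay at the 2-fold limit and were called when any 1 of several arrays was left out. Nyx, Chad and Prelp lay between 0.32 and 0.53, and Omd and Podn at -0.35 and -0.23. Week 8 replicate 6 was the lowest array, with a mean level of 7.14 over the list, against 7.89 to 8.21 in the other 5 of week 8. Without it and replicate 2 together the 4 calls were not lost.

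Elastic fibre genes included larger falls. Of 16, 5 were called lower and 1 higher (median -0.62). Fbn2, the fibrillin of developing tissue, measured 6.51, 7.06 and 7.50 in week 8, against 8.78, 9.12 and 9.46 in week 1 (difference -2.07 ± 0.23, adjusted p = 6.49e-08). Mfap2, a microfibril component, measured 7.99, 8.37 and 8.64 in week 8, against 9.77, 10.34 and 10.51 in week 1 (difference -1.86 ± 0.20). Eln, encoding tropoelastin, measured 8.39, 8.62 and 9.01 in week 8, against 9.67, 10.17 and 10.74 in week 1 (difference -1.51 ± 0.24). No week 8 array reached a week 1 array for these 3. Fbln5 fell by 1.35 and Mfap5 by 1.43, and Efemp1, a fibulin, rose by 1.27 with overlapping arrays. The large proteoglycan Vcan measured 5.68, 6.21 and 6.34 in week 8, against 7.65, 8.03 and 8.62 in week 1 (difference -1.98 ± 0.22). Cd44, the hyaluronan receptor, was called higher (1.41), and of the other 13 hyalectan and hyaluronan genes none was called.

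Basement membrane genes split by type. Of 14, 2 were called higher and 6 lower. The chains of the epithelial laminin, Lama3 and Lamb3, rose by 1.71 and 1.55. Lama4, a laminin chain of vessels, measured 6.53, 7.68 and 8.07 in week 8, against 8.44, 9.17 and 9.39 in week 1 (difference -1.46 ± 0.27). Nid1, Nid2, Lamc1, Lama2 and Lamb1 fell by 1.06 to 1.35, all without overlap. Lama2 lost its call without week 8 replicate 6 and Lamb1 without week 1 replicate 1. Among 26 matrix proteases and inhibitors the stromelysin Mmp3 rose, at 7.27, 7.63 and 7.97 in week 8, against 4.95, 5.54 and 6.01 in week 1 (difference 2.11 ± 0.24, adjusted p = 6.69e-08), and the membrane-type protease Mmp16 fell, at 5.57, 5.85 and 5.98 in week 8, against 7.16, 7.39 and 7.59 in week 1 (difference -1.57 ± 0.14). Among 27 matricellular genes Tgfbi, a corneal adhesion protein, rose by 1.35, and Postn and Thbs2 fell by 1.29 and 1.35 beside Tnr and Thbs1. Tgfb2 measured 6.22, 6.64 and 6.93 in week 8, against 7.51, 8.09 and 8.62 in week 1 (difference -1.45 ± 0.17) and was 1 of 4 of the 21 TGF-beta and BMP signals that fell, with Bmp4, Bmp2 and the antagonist Grem1. Tnr, Thbs1, Bmp4, Bmp2 and Grem1 lay close to 2-fold, and each lost its call when 1 or more single arrays were left out. The TGF-beta and BMP count was 2 without week 8 replicate 6 or without week 1 replicate 1, and the matricellular count 2 without week 1 replicate 3. Without week 1 replicate 3, 4 proteases and inhibitors were called lower.

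Of 17 scleral fibroblast markers 5 were called lower and none higher, and their mean level was 9.47 in week 8 (8.87 to 9.81) and 10.15 in week 1 (9.72 to 10.48). Fibroblast genes were at high levels at both ages. Genes of the ocular surface epithelium and of adult muscle also had mean levels above the median of the arrays at both ages, whereas lens genes lay around that median in week 8. The part of these tissues in the matrix results was not tested.

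Retinal genes were lower in the week 8 extracts. How much retina, lens or muscle each extract held was not measured here. Of 22 rod phototransduction genes 18 were called lower and none higher (median -1.84), of 10 cone genes 7 (median -1.14, and 3 without week 1 replicate 6), of 18 retinal transcription factors 8 (median -0.48) and of 26 genes of inner retinal neurons and Müller glia 13 (median -0.96). Sag, the rod arrestin, measured 6.52, 8.09 and 9.70 in week 8, against 9.13, 11.15 and 11.84 in week 1 (difference -2.75 ± 0.49, adjusted p = 4.45e-05). Crx, the homeobox factor of photoreceptors, measured 5.60, 5.90 and 7.60 in week 8, against 7.47, 9.66 and 10.52 in week 1 (difference -3.06 ± 0.42). Sag and Crx overlapped, as did 16 of the 18 called rod genes. Otx2, shared with the pigment epithelium, measured 6.60, 7.25 and 7.89 in week 8, against 8.26, 10.05 and 10.25 in week 1 (difference -2.50 ± 0.28) without overlap. The mean level of the rod genes was 7.05 in week 8 (6.15 to 8.34) and 8.98 in week 1 (7.42 to 10.08). Week 8 replicate 2 was the highest of its age, and week 1 replicates 1 and 2 were the lowest of theirs. In the fit of the 12 arrays with their interquartile range as a covariate, 4 rod genes were called, all lower.

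The letters TAATCC, read by CRX and OTX2, were found on either strand in 8 of the 17 rod genes with a promoter in the table, in 5 of the 13 called ones, and in 8.14% of all 27025 promoters. The share was larger among the rod genes not called. The stretches of Gngt1, the gamma subunit of the rod G protein (difference -2.62), and of Gucy2f, a photoreceptor guanylate cyclase (-1.65), are shown with matches in capitals (RefSeq, GRCm38.p6).
Gngt1 (chr6:3993934-3993999, plus strand): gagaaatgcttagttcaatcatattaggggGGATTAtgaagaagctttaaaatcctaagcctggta
Gucy2f (chrX:142196960-142197050, minus strand): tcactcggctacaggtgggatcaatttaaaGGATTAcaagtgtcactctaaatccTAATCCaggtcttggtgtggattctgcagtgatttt
The letters AACCGGTT of the GRHL motif were found in none of the 16 promoters of the ocular surface list and in 0.174% of all promoters. The MEF2 core was searched only as CTA, TTTA and TAG in a row. It was found in none of the 30 promoters of the adult muscle list and in 0.181% of all promoters. Letters this rare would hardly occur in so few promoters in any case. Their absence therefore says nothing about GRHL or MEF2 factors at these genes.

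Genes of the retinal pigment epithelium and of melanosomes fell as well, although the strain is albino. Of 14 pigment epithelium and visual cycle genes 11 were called lower (median -1.50) and of 16 melanosome and melanocyte genes 12 (median -1.37). Rpe65, the isomerase of the visual cycle, measured 3.58, 7.19 and 7.86 in week 8, against 7.89, 9.61 and 10.20 in week 1 (difference -2.68 ± 0.60, adjusted p = 5.73e-04). Its lowest value was week 8 replicate 6, the other 5 arrays lying at 6.60 to 7.86. Tyr, encoding tyrosinase, measured 5.05, 5.76 and 6.74 in week 8, against 7.95, 8.57 and 10.08 in week 1 (difference -2.82 ± 0.40, adjusted p = 2.26e-06). Pmel, the fibril protein of melanosomes, measured 7.55, 8.76 and 9.80 in week 8, against 10.43, 11.16 and 11.99 in week 1 (difference -2.42 ± 0.42). Tyr and Pmel did not overlap, nor did Tyrp1, Oca2, Slc45a2, Slc24a5 and Gpr143. Kit, the receptor of melanoblasts and mast cells, was called higher (1.01), and lost that call without any 1 of several arrays. The fit of the 12 arrays with their interquartile range as a covariate called 1 pigment epithelium gene and 6 melanosome genes lower.

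Lens genes had the largest differences of all and the widest spread. Of 19, 15 were called lower (median -1.84), but the arrays overlapped in 14 of the 15. Crygd, a gamma crystallin, measured 3.42, 3.75 and 4.56 in week 8, against 3.41, 9.32 and 12.16 in week 1 (difference -5.04 ± 0.88, adjusted p = 3.27e-05). Week 1 replicate 2 was at the week 8 level. The mean level of the list was 5.98 in week 8 (5.66 to 6.68) and 8.18 in week 1 (5.74 to 10.55). In the fit of the 12 arrays with their interquartile range as a covariate no lens gene was called. The gamma crystallins are near-identical copies, and their probes may not separate them.

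Of 20 axon and synapse genes 12 were called lower (median -1.30). Gap43, the growth cone protein, measured 6.65, 6.99 and 7.30 in week 8, against 7.70, 8.63 and 8.88 in week 1 (difference -1.55 ± 0.15, adjusted p = 6.69e-09). Snap25, a synaptic vesicle fusion protein, measured 5.55, 6.12 and 7.30 in week 8, against 7.22, 9.63 and 10.29 in week 1 (difference -2.91 ± 0.44). Gap43 did not overlap, and Snap25 did. Of 18 myelin and Schwann cell genes 3 were called lower (Pmp22, Cnp and Ugt8a), with a median of -0.07. Of these, Pmp22 and Cnp were not called without week 8 replicate 6, and Cnp and Ugt8a were not called without week 1 replicate 3 or 6, nor was Cnp without week 1 replicate 4.

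Muscle genes differed little in the median and varied widely between animals. Of 16 embryonic and perinatal isoforms and factors 3 were called lower (median -0.39), and of 36 adult isoforms 5 were called lower (median -0.36). Myh8, the perinatal myosin heavy chain, measured 6.61, 7.16 and 7.61 in week 8, against 7.42, 8.78 and 10.21 in week 1 (difference -1.66 ± 0.37, adjusted p = 6.27e-04). Ncam1, an adhesion molecule of developing muscle and nerve, measured 6.75, 7.62 and 7.97 in week 8, against 8.56, 9.19 and 9.76 in week 1 (difference -1.72 ± 0.22), the only member without overlap. Myh3, the embryonic myosin that extraocular muscle retains, measured 7.05, 9.05 and 10.23 in week 8, against 7.95, 8.89 and 11.64 in week 1, a difference of -0.49 that was within the spread. Of the fast adult myosins, Myh1 measured 9.23, 9.62 and 10.67 in week 8, against 9.62, 11.54 and 11.71 in week 1 (difference -1.47 ± 0.39, adjusted p = 2.88e-03), Myh2 fell by 1.11, and Myh4 measured 10.37, 11.12 and 11.63 in week 8, against 8.45, 10.48 and 11.42 in week 1, a difference of 0.73 that was not called (adjusted p = 0.264). Myh13, the extraocular myosin, differed by -0.16 and Myh7, the slow myosin, by -0.22. Of the acetylcholine receptor subunits, fetal Chrng differed by 0.11 and adult Chrne by 0.08, and neither was called. The count of adult isoforms called lower was 2 without week 8 replicate 4 and 10 without week 1 replicate 6, the week 1 array lowest in muscle. It was 8 without week 8 replicate 2 or 3 and 3 without week 8 replicate 6 or without week 1 replicate 2 or 4. Of the called members Myh2, Casq1 and Mybpc1, and the factor Myf6 of the developmental list, lost their calls when 1 or more single arrays were left out.

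Vessel genes were lower in part. Of 23 endothelial genes 4 were called lower (median -0.66). Gja5, the connexin of arterial endothelium, measured 5.52, 5.78 and 6.34 in week 8, against 6.65, 7.24 and 7.80 in week 1 (difference -1.35 ± 0.21, adjusted p = 8.76e-06). Kdr, Cdh5 and Emcn fell by 1.11 to 1.20, and without week 8 replicate 6 only Gja5 was called, whereas 7 were called without week 8 replicate 2. Of 17 smooth muscle and pericyte genes Rgs5 and Acta2 were called lower (11.8%, beside 4.76% of all genes). Neither was called without week 8 replicate 6, nor was Acta2 without week 1 replicate 1.

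Genes singled out in the study of these arrays included Egfr, the epidermal growth factor receptor, which measured 8.88, 9.58 and 9.70 in week 8, against 8.13, 8.41 and 8.95 in week 1 (difference 1.01 ± 0.14). Its arrays overlapped through week 8 replicate 2, and it lost its call without any 1 of several arrays. Zeb2, a zinc finger repressor of epithelial genes, measured 6.05, 7.25 and 7.66 in week 8, against 8.26, 8.47 and 8.66 in week 1 (difference -1.29 ± 0.23) without overlap. The kinase Fyn (-1.02) was also lower, but was not called without week 8 replicate 6 or without week 1 replicate 3.

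Other lists changed in few members, several at shares near those of all genes (3.21% higher and 4.76% lower). Ppargc1a, the coactivator of mitochondrial biogenesis, measured 6.00, 6.54 and 6.98 in week 8, against 7.42, 7.60 and 8.05 in week 1 (difference -1.17 ± 0.18, adjusted p = 6.13e-06), and with Cox8b was 1 of 2 of 28 respiratory chain and PGC-1 genes called lower (median -0.47). Of 17 clock genes Nr1d1 rose, at 9.77, 10.08 and 10.18 in week 8, against 8.15, 8.81 and 9.08 in week 1 (difference 1.35 ± 0.14), and Bhlhe41 fell by 1.34. The hour of sampling was not in the sources used here. None of 26 ribosomal protein genes was called in either direction at 2-fold (median 0.06). Of 19 cartilage and bone genes Alpl, an alkaline phosphatase of several tissues, was called higher (1.45), and Phex, Col10a1 and Col11a1 were called lower. Of 12 erythroid genes 2 were called lower (Car2 and Tfrc), of 19 complement genes 1 (Cd59a) and of 14 lacrimal and Harderian gland genes 1 (Car6), and none was called higher. Of 19 adipocyte genes Dgat2 rose and Fabp4 fell, and of 10 mast cell genes Kit rose and Cpa3 fell. Tfrc, Cd59a, Fabp4, Kit and Cpa3 each lost the call when 1 or more single arrays were left out.

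The levels at the ages between are given to place these differences in time. The levels of the sex genes also shifted between the ages. Xist lay at 12.57 to 12.94 in the week 3 arrays and at 1.70 to 7.52 in the week 6 arrays. In week 6 replicates 1 and 2, the highest of their age in Xist, Eif2s3y lay at 5.90 and 6.19. It lay at 0.59 to 0.81 in week 3 and at 2.61 to 2.70 in week 1 replicates 3, 4 and 6. In week 6 replicates 3 and 5 Eif2s3y lay at 9.89 and 10.38, against 7.78 to 8.04 in week 1 replicates 1, 2 and 5. The part of sex and of batch removal in these shifts and in the course was not tested. Over the 5 ages the mean level of ocular surface genes was 7.85 at week 1, 9.59 at week 2, 9.65 at week 3, 9.42 at week 6 and 9.82 at week 8, so that most of the difference was present by week 2. Imprinted genes lay at 8.57, 7.23, 7.44, 7.50 and 7.18 in the same order. Class II genes climbed at each age, from 5.52 at week 1 through 5.93, 6.08 and 6.29 to 6.44 at week 8, while interferon-induced genes peaked at week 6 (6.38, 6.80, 7.12, 7.58 and 7.28). Elastic fibre genes lay at 8.71, 8.05, 8.79, 8.02 and 8.12, and rod genes at 8.98, 6.14, 7.37, 7.20 and 7.05. All of these are means of 6 arrays, of which week 2 replicate 4 equals the mean of the other 5 of its age, and they were not tested between neighbouring ages here.

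**Figure D5:**
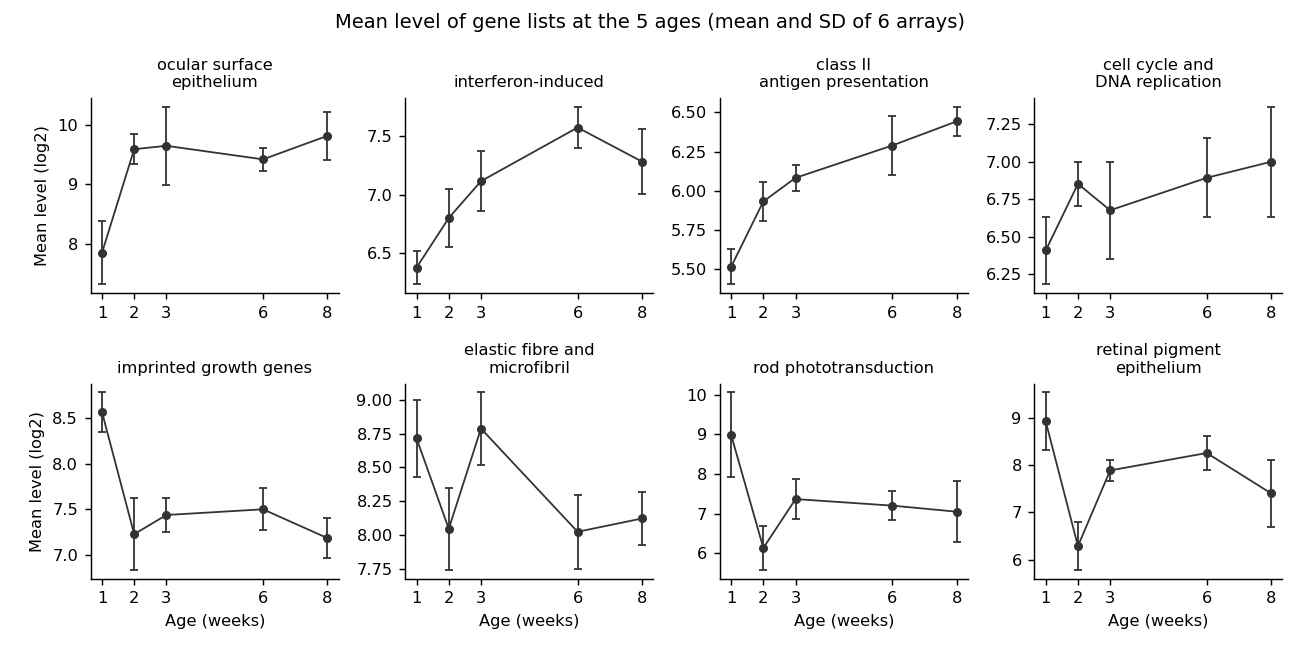
Mean level (log2) of 8 gene lists at 1, 2, 3, 6 and 8 weeks of age; points are means and bars SDs of 6 arrays, 1 of which adds no spread of its own at week 2. Ocular surface genes lie at 7.85 at week 1 and at 9.42 or above from week 2 on, and imprinted genes at 8.57 at week 1 and at 7.50 or below from week 2 on.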

How the data were processed

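Log2 levels of 35556 transcript clusters on 30 arrays, as deposited by the authors, were used; 12 arrays made up the comparison. The study's methods name robust multiarray averaging in Partek 6.5 and removal of batch effects by scan date, whereas the submitters' processing notes name Partek 6.5 and GCRMA. Which of these summaries made the deposited table could not be settled. In it week 2 replicate 4 equals the mean of its age and week 6 replicates 4 and 6 deviate equally in opposite directions, both within 1e-04 for every transcript cluster, as a removed term for each leaves it. The 30 arrays thus held 23 residual dimensions in place of 25. The week 8 and week 1 arrays held all 10, so no removed term was confined to some arrays of either age. A term shared by all arrays of an age costs no residual dimension and could not be seen this way. The levels of Xist and Eif2s3y shifted between the ages, as given above, and whether such a term did this was not tested. Scan dates were not in the sources used here. No depth or detection call accompanies array values, and 6 arrays per age limit the precision.

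Gene symbols came from the platform annotation. Of the transcript clusters 21789 had 1 symbol, 1621 several and 12146 none. A linear model with 1 mean per age was fitted to all 30 arrays, so that the ages share 1 estimate of spread, and the week 8 minus week 1 contrast was tested with limma 3.58.1 (R 4.3.3). No filter on low levels was used. p-values were adjusted over all transcript clusters by Benjamini-Hochberg, with 0.05 and 2-fold as limits. The fit was tested on simulated data.

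Genes were named by rule: the 12 largest rises and falls among called genes without overlap of the arrays, the 4 largest called members of each list in each direction, all muscle isoform, IGF, fibrillar collagen and small leucine-rich proteoglycan members, and genes named in the study. Members and lists were chosen with earlier results of these data known, and further families are said to be listed after the values were seen. Further genes of the lists were named after their values were seen. Lists are described by counts and medians, without a test. Alternatives were other normalizations, filters, weights, covariates and sample sets. Sequences came from RefSeq (GRCm38.p6), which held mature forms for all 28 called microRNA genes.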

Additional observations from a re-analysis of the deposited data

Results flagged for a closer look

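The levels below were flagged because 1 array lay far from the other 5 of its age (the gap to the nearest array, over the range of the 6, exceeded Dixon's critical value for 6 samples). The search covered 130 groups of 6 arrays, and chance flags about 1 group in 20. No explanation was tested.

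Week 8 replicate 2 stood apart in most. Its mean level was 9.0 in ocular surface epithelium genes, against 9.86 to 10.11 in the other 5 week 8 arrays, and 6.31 in cell cycle and DNA replication genes, against 7.0 to 7.41. It was the highest week 8 array in cone phototransduction (5.81, against 5.21 to 5.38), in retinal progenitor and neuronal factors (6.68, against 6.18 to 6.28), in lens crystallins and lens fibre genes (6.68, against 5.66 to 5.95), in cartilage and bone genes (6.47, against 6.11 to 6.23) and in axon and synapse genes (6.30, against 5.58 to 5.79). Among the genes with the largest rises it was the lowest week 8 array for Psca (7.38, against 9.12 to 9.90), Plet1 (10.49, against 11.32 to 11.76), Lypd2 (9.30, against 11.06 to 11.74), Nccrp1 (8.33, against 9.41 to 9.74), Slc5a1 (7.37, against 8.77 to 9.61) and Aqp5 (9.61, against 10.94 to 11.57).

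Week 8 replicate 6 had a mean level of 7.14 in small leucine-rich proteoglycan genes, against 7.89 to 8.21 in the other 5, and 3.58 for Rpe65, against 6.60 to 7.86. In week 1, replicate 2 had the highest Psca level (5.01, against 4.08 to 4.39).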

How the results depend on the processing

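Without a fold threshold 11735 genes passed, 5936 higher and 5799 lower, and 19251 transcript clusters, 9542 higher and 9709 lower. Among transcript clusters above the median signal 1648 were called, 908 of them lower, and among those with 1 symbol 1121 were called lower. In the fit of the 12 arrays alone with the spread of each array as covariate, which was added once the data had been seen, 504 genes and 817 transcript clusters were called lower. These counts moved by over 1.5 times because fewer transcript clusters or no fold limit were used, and for the covariate the cause was not tested. Leaving out 1 array at a time gave 1425 to 1801 called genes (597 to 773 higher, 819 to 1096 lower) and 2291 to 2943 transcript clusters (794 to 968 higher, 1497 to 1997 lower). Leaving out week 8 replicates 2 and 6 together, also chosen after the data were seen, gave 750 genes higher and 873 lower. Weights, median centring, quantile normalization, only the 12 arrays, an analysis of variance without moderation and the mean over the transcript clusters of a gene gave 1495 to 1781 called genes. With terms for the 2 removed batches of weeks 2 and 6, added after the data were seen, the same 1591 genes were called. These terms were already removed from the values and cover no week 8 or week 1 array. The fit could therefore hardly differ, and its count says nothing about batch effects between the ages compared. Replicate numbers are shared by the ages, but deviations of same-numbered arrays did not go together (r from -0.04 to 0.12, and 0 of 6 arrays correlated best with its own number), so the numbers do not pair the animals. With the replicate block 1592 genes were called, 642 higher and 950 lower, and 2559 transcript clusters. For the genes named by rule, 5921 results under alternatives kept their direction and side of the limits, 222 kept the direction but were no longer called, 66 became called and none reversed. For the genes named after their values were seen the numbers were 2013, 55, 6 and none.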

Other observations

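Families that belong to no list above were described after their values were seen. Of 22 beta protocadherins, adhesion molecules that give neurons individual surface identities, 13 were called lower at week 8 and none higher (median -1.04). Pcdhb17 measured 4.21, 4.56 and 4.80 in week 8, against 5.79, 6.46 and 6.53 in week 1 (difference -1.79 ± 0.14, adjusted p = 4.80e-10), and Pcdhb9 measured 3.40, 3.57 and 4.01 in week 8, against 4.67, 5.54 and 6.45 in week 1 (-1.88 ± 0.20). Neither overlapped between the ages. The genes of this cluster are close copies of each other, and their probes may not separate them. Of 16 genes of the X-linked Bex, Tceal and Armcx families 10 were called lower and none higher (median -1.03). Bex1 measured 3.52, 3.97 and 4.28 in week 8, against 5.17, 6.20 and 6.47 in week 1 (-2.05 ± 0.20, adjusted p = 7.75e-09), and Armcx3, a mitochondrial outer membrane protein, measured 6.42, 7.42 and 7.67 in week 8, against 8.98, 9.19 and 9.37 in week 1 (-1.91 ± 0.21). Retinal and axonal genes, which are also expressed with these families in neurons, fell in the same arrays, and neither their part nor that of sex was tested.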
